A study of Mus musculus with 4 samples.

Results

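Collagen chain genes were taken as the genes whose symbol consists of Col, a type number, the letter a and a chain number. The table held 43 of them among 22508 gene symbols, and each had 1 row. They were followed in tumours grown from CT26, a BALB/c mouse colon carcinoma line, by RNA-seq of total tumour RNA. The 4 libraries, 1 per group, came from IL-34-overexpressing CT26 tumours given anti-PD-1, IL-34-overexpressing CT26 tumours left untreated, IL-34-deficient CT26 tumours given anti-PD-1 and IL-34-deficient CT26 tumours left untreated. IL-34 is a ligand of the CSF-1 receptor of macrophages, and anti-PD-1 blocks an inhibitory receptor of T cells. All 4 groups carry an altered Il34, with no library of unaltered CT26, so overexpression and deficiency cannot be told apart as the origin of a difference between the lines. The sources used here do not give the way either line was made, the number of clones, the number of animals behind a library, the antibody schedule or any control antibody.

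Collagens are extracellular proteins whose chains wind around each other into a triple helix. Fibrillar collagens are secreted as procollagens, trimmed at both ends and assembled into the fibrils of connective tissue, while type IV collagen forms the sheet-like network of basement membranes under endothelium and epithelium. Other types decorate fibrils, form beaded filaments or short-chain lattices, or span the cell membrane. In tumours, fibroblasts are the usual main source of fibrillar collagen, and tumour cells and endothelium can also make collagen. The 43 genes were sorted by type into 11 fibrillar, 6 basement membrane (type IV) and 26 other genes.

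Levels are in FPKM, the number of fragments divided by transcript length and by the fragments that mapped in that library. Of the 43 genes, 18 had at least 1 FPKM, and these 18 did so in every library. They were 6 fibrillar, 3 basement membrane and 9 other genes. The remaining 25 stayed under 1 FPKM in every library. Differences are given as log2 ratios of FPKM + 1, and folds as plain ratios of FPKM. A difference was counted as large at a log2 ratio of at least 1 in size where at least 1 of the libraries compared had at least 1 FPKM.

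As examples of start regions, the 150 bases upstream of the RefSeq start are printed for 3 fibrillar genes and for Col4a5. The fibrillar genes were higher in the anti-PD-1 library of both lines. Col4a5, a basement membrane gene, was within a few percent of its untreated level in the deficient line. Capitals mark letter matches at any place in the 150 bases. The letters are those of a CCAAT box (CCAAT, or ATTGG on the other strand), a GC box (GGGCGG, or CCGCCC) or a TATA box (TATAAA, or TTTATA). Whether a match acts as a promoter element was not tested. The sequences are from RefSeq on GRCm38.p6, read 5′ to 3′ on the plus strand, at chr6:4505468-4505617 for Col1a2, chr1:45311388-45311537 for Col3a1, chr2:27886275-27886424 for Col5a1 and chrX:141475269-141475418 for Col4a5.
Col1a2: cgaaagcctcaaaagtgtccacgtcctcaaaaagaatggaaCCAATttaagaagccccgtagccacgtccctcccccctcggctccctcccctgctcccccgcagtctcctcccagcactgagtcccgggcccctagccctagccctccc
Col3a1: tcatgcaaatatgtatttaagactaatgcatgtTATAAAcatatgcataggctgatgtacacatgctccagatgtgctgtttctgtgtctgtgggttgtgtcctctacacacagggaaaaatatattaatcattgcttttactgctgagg
Col5a1: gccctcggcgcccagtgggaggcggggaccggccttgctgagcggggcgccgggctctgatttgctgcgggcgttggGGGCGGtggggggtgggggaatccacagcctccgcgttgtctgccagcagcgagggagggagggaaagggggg
Col4a5: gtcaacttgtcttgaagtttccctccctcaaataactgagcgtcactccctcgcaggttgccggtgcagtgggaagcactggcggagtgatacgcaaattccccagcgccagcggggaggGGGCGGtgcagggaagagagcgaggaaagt
Col1a2 held the letters of a CCAAT box, Col3a1 those of a TATA box, and Col5a1 and Col4a5 those of a GC box. For Col1a2 the RefSeq start lies 79 bases before the 5′ end of the deposited gene model. Of the 18 genes, 14 had a promoter entry. Col1a1 had none, and the remaining entries, among them those of Col5a3, Col6a2, Col4a1 and Col4a2, are not printed. A CCAAT box was found in 5 of the 14, against 24.5% of 32851 promoter windows of the same length, a GC box in 7, against 28.6%, and a TATA box in 1, against 7.57%. No motif was common to the 3 fibrillar genes shown. The entry of Col5a3, also fibrillar, held the letters of a CCAAT box, as did Col1a2, and of a GC box, as did Col5a1.

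The summed FPKM of all genes was 518464 and 523753 in the treated and untreated overexpressing libraries, and 488881 and 543926 in the treated and untreated deficient libraries. Relative to the untreated deficient library, depth was 90.1%, 95.2% and 92.6% in the treated overexpressing, untreated overexpressing and treated deficient libraries. Il34 was at 104 FPKM in both overexpressing libraries, against 3.02 FPKM in the treated and 3.52 FPKM in the untreated deficient library, the direction of the labels. The treated deficient library stood apart in its content of other tissues. Its epidermal marker genes summed to 109 FPKM, against 4.70 in its untreated counterpart, and its skeletal muscle marker genes to 434 FPKM, against 142. In the overexpressing line the same lists summed to 1.51 against 1.15 FPKM for epidermis and to 14.7 against 106 FPKM for skeletal muscle. With 1 library per group, no comparison between a pair of libraries has a replicate check.

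FPKM is scaled per length, which allows a rough comparison of levels between collagen genes. Other differences between genes in how well their fragments are recovered were not assessed. Col1a2, the second chain of type I collagen, was the most abundant in every library. In the untreated deficient library it was at 276 FPKM, followed by Col3a1 at 89.9, Col4a1 at 66.0, Col1a1 at 59.6 and Col4a2 at 44.9. Col1a1 encodes the chain that type I collagen holds more of, and its FPKM was below that of Col1a2 in every library. Summed over all 43 genes, collagens reached 926 FPKM in treated against 755 FPKM in untreated overexpressing tumours. In deficient tumours the sums were 978 FPKM with treatment and 721 FPKM without. As a share of all FPKM, collagens made up 0.179% and 0.144% in the treated and untreated overexpressing libraries, and 0.200% and 0.132% in the treated and untreated deficient libraries. In such whole-tumour RNA, fewer cells of a type and less RNA per cell cannot be told apart.

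**Figure D1:**
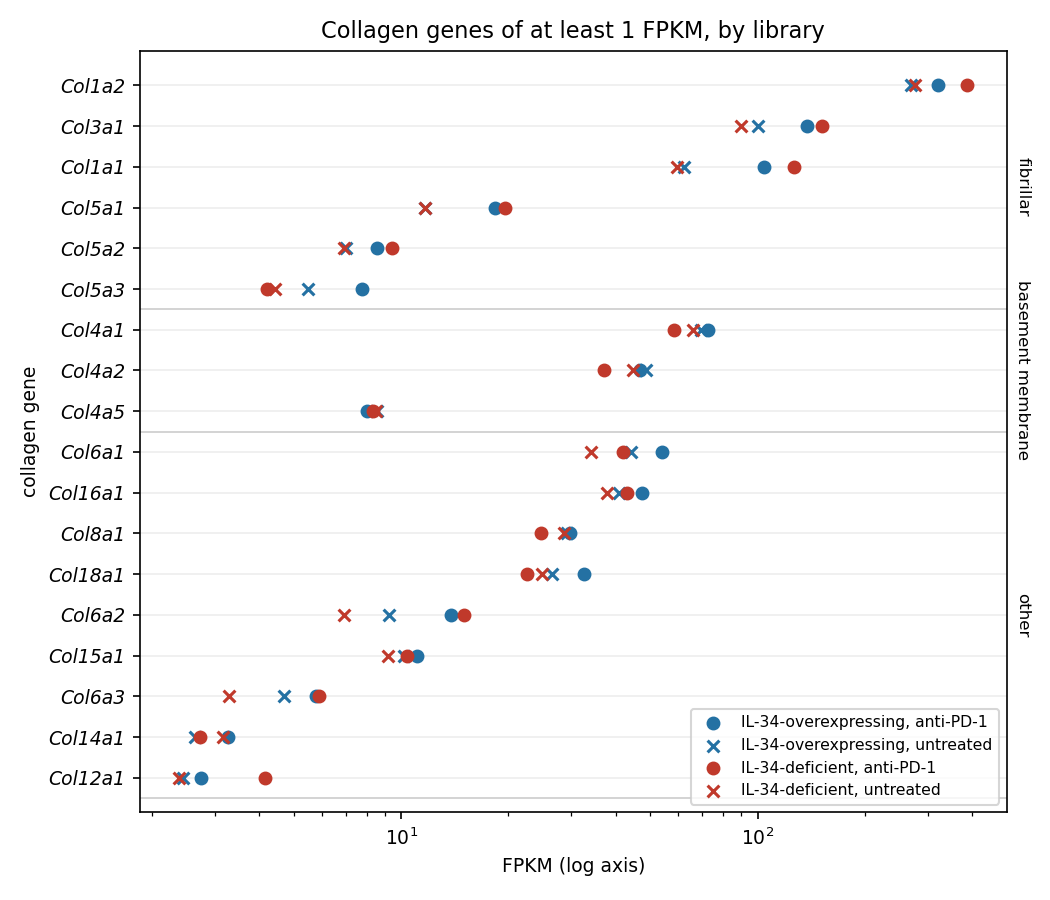
Level in FPKM (log axis) of the 18 collagen genes of at least 1 FPKM, by library, with filled circles for anti-PD-1 and crosses for untreated tumours, and classes separated by lines. The filled circles of the fibrillar genes lie to the right of the crosses, apart from Col5a3 in the deficient line, where 4.19 FPKM stood against 4.43.

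The first question was whether collagen transcripts differed between anti-PD-1-treated and untreated tumours of each line. The fibrillar collagens were higher in the treated library of both lines, type IV collagen was not, and type VI collagen went with the fibrillar genes. Of the 18 expressed genes, 11 were higher in the treated library of both lines, 2 were lower in both and 5 differed in direction. Over all 11813 genes tested, 21.6% were higher in both. The 11 were 5 of 6 fibrillar, 0 of 3 basement membrane and 6 of 9 other genes. These comparisons of the lines share no library.

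Among the fibrillar genes, Col1a1 (chromosome 11, 94936270 to 94951856) had 104 FPKM in treated against 62.2 FPKM in untreated overexpressing tumours, and 127 FPKM in treated against 59.6 FPKM in untreated deficient tumours. Both treated libraries lay above both untreated ones, 1.67-fold in the overexpressing line and 2.13-fold in the deficient line. Its partner Col1a2 (chromosome 6, 4505697 to 4541543) had 319.9 FPKM in treated against 269.8 FPKM in untreated overexpressing tumours, and 388 FPKM in treated against 276 FPKM in untreated deficient tumours. Both treated libraries again lay above both untreated ones, with smaller folds of 1.19 and 1.40. The 2 chains of type I collagen thus differed unequally: the ratio of Col1a1 to Col1a2 was 0.325 in treated and 0.231 in untreated overexpressing tumours, and 0.328 in treated and 0.216 in untreated deficient tumours. Both treated libraries had the higher ratio.

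Col3a1 (chromosome 1, 45311538 to 45349706), which encodes the single chain of type III collagen of young and elastic connective tissue, had 137 FPKM in treated against 99.98 FPKM in untreated overexpressing tumours. In deficient tumours it had 152 FPKM with treatment and 89.9 FPKM without. Both treated libraries were above both untreated ones, 1.37-fold in the overexpressing line and 1.69-fold in the deficient line. The type V chains nucleate type I fibrils and set their thickness. Col5a1 (chromosome 2, 27886425 to 28039510) had 18.3 FPKM in treated against 11.7 FPKM in untreated overexpressing tumours, and 19.6 FPKM in treated against 11.7 FPKM in untreated deficient tumours. Its untreated libraries were almost equal, and the treated ones were 1.57-fold and 1.67-fold higher. Col5a2 (chromosome 1, 45374331 to 45503282) lies 24624 bases from Col3a1 in the deposited gene models. It had 8.56 FPKM in treated against 7.001 FPKM in untreated overexpressing tumours, and 9.45 FPKM in treated against 6.90 FPKM in untreated deficient tumours. Both treated libraries were above both untreated ones, with smaller folds of 1.22 and 1.37. Col5a3 (chromosome 9, 20770050 to 20815034), the type V chain of restricted distribution, was the exception among the fibrillar genes. It had 7.77 FPKM in treated against 5.47 FPKM in untreated overexpressing tumours, but 4.19 FPKM in treated against 4.43 FPKM in untreated deficient tumours.

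As a class, the fibrillar genes had a median log2 ratio of 0.45 in the overexpressing line and 0.59 in the deficient line, against medians of 0.00 and -0.06 over all genes tested. Their summed level was 597 FPKM in treated and 457 FPKM in untreated overexpressing tumours, a ratio of 1.31. In deficient tumours it was 699.9 FPKM with treatment and 449 FPKM without, a ratio of 1.56. The 2 type I chains and Col3a1 held nearly all of this sum, so the sums speak mainly for types I and III.

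**Figure D2:**
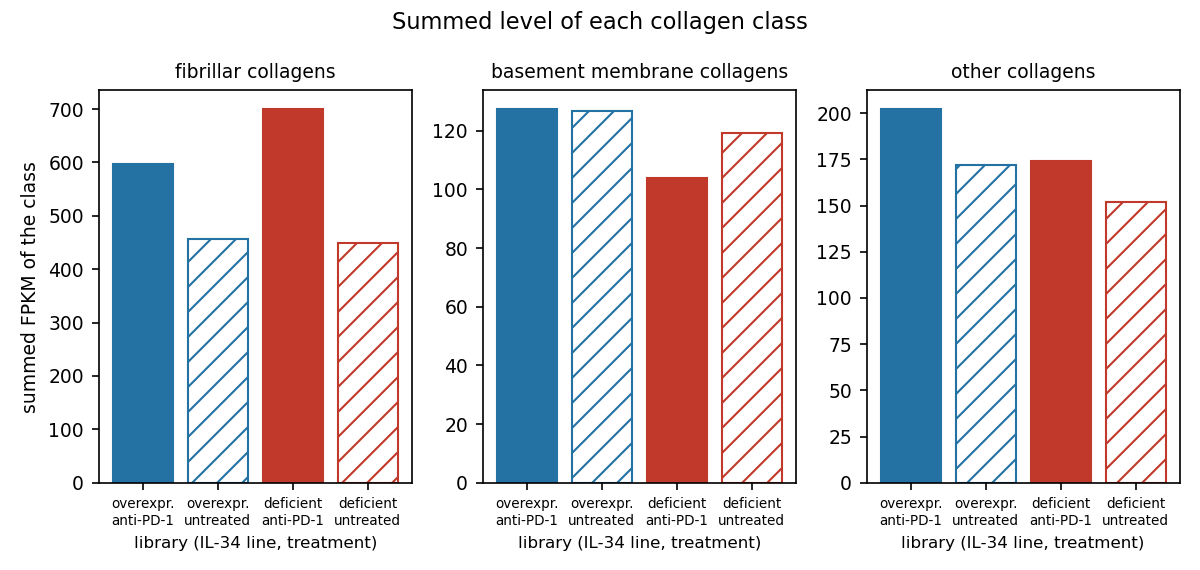
Summed FPKM of the fibrillar, basement membrane and other collagens in each library, with filled bars for anti-PD-1 and hatched bars for untreated tumours (1 library a bar, each panel with its own axis from 0). Fibrillar sums are 597 against 457 in the overexpressing and 699.9 against 449 in the deficient line, while basement membrane sums are 127 against 127 and 104 against 119.

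Type IV collagen behaved otherwise. Col4a1 (chromosome 8, 11198423 to 11312826) had 72.5 FPKM in treated against 69.5 FPKM in untreated overexpressing tumours, and 58.5 FPKM in treated against 66.0 FPKM in untreated deficient tumours. Col4a2 lies 2 bases away on the opposite strand (11312829 to 11449287), and the pair encode the common chains of vascular basement membrane. Col4a2 had 46.8 FPKM in treated against 48.7 FPKM in untreated overexpressing tumours, and 37.0 FPKM in treated against 44.9 FPKM in untreated deficient tumours. The treated deficient library was the lowest of the 4 for both genes. Col4a5 (chromosome X, 141475419 to 141689235), a chain of kidney and epithelial basement membrane, had 8.02 FPKM in treated against 8.54 FPKM in untreated overexpressing tumours, and 8.33 FPKM in treated against 8.48 FPKM in untreated deficient tumours. Its 4 libraries were the closest together of the type IV genes shown. The class medians were -0.06 in the overexpressing and -0.17 in the deficient line. The other chains, Col4a3, Col4a4 and Col4a6, were under 0.1 FPKM in every library. Endothelial markers, which the vascular basement membrane accompanies, summed to 81.0 against 96.7 FPKM in the overexpressing line and to 64.1 against 79.3 FPKM in the deficient line, lower with treatment in both. Of the 10 endothelial genes tested, 0 in the overexpressing and 1 in the deficient line were higher with treatment, against 49.1% and 40.2% of all genes tested. The part of endothelium in the type IV values was not tested.

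Type VI collagen forms beaded filaments at the surface of cells and around fibres, from a Col6a1 chain, a Col6a2 chain and a long chain such as Col6a3. Col6a1 (chromosome 10, 76708792 to 76726044) had 54.1 FPKM in treated against 44.3 FPKM in untreated overexpressing tumours, and 41.9 FPKM in treated against 34.05 FPKM in untreated deficient tumours. Treated tumours were higher by similar folds, 1.22 and 1.23, and both overexpressing libraries were above their deficient counterparts. Col6a2 (chromosome 10, 76595756 to 76623404) had 13.8 FPKM in treated against 9.22 FPKM in untreated overexpressing tumours, and 14.999 FPKM in treated against 6.90 FPKM in untreated deficient tumours. Its folds of 1.49 and 2.17 were larger than those of Col6a1, its neighbour at 85387 bases. Col6a3 (chromosome 1, 90766860 to 90843971) had 5.78 FPKM in treated against 4.68 FPKM in untreated overexpressing tumours, and 5.89 FPKM in treated against 3.29 FPKM in untreated deficient tumours. For Col6a1, Col6a2 and Col6a3 alike the untreated deficient library was the lowest of the 4. The ratio of Col6a1 to Col6a2 was 3.93 in treated and 4.80 in untreated overexpressing tumours, and 2.79 in treated and 4.93 in untreated deficient tumours.

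The other 6 expressed genes include fibril-associated, vessel-wall and basement membrane zone collagens. Col12a1, a fibril-associated collagen of dense connective tissue, had 2.75 FPKM in treated against 2.45 FPKM in untreated overexpressing tumours, and 4.14 FPKM in treated against 2.39 FPKM in untreated deficient tumours. The treated deficient library stood alone. Col16a1, also fibril-associated, had 47.5 FPKM in treated against 40.8 FPKM in untreated overexpressing tumours, and 43.0 FPKM in treated against 37.8 FPKM in untreated deficient tumours. Col15a1, of basement membrane zones, had 11.1 against 10.2 FPKM in overexpressing and 10.4 against 9.17 FPKM in deficient tumours. Both were slightly higher with treatment in each line. Col18a1, whose end fragment is endostatin, had 32.5 FPKM in treated against 26.4 FPKM in untreated overexpressing tumours, but 22.5 FPKM in treated against 24.9 FPKM in untreated deficient tumours. Col14a1, a fibril-associated collagen, had 3.26 against 2.65 FPKM in overexpressing and 2.72 against 3.16 FPKM in deficient tumours. Col8a1, a short-chain collagen of vessel walls, had 29.7 against 29.2 FPKM in overexpressing and 24.7 against 28.6 FPKM in deficient tumours. These last 3 genes were higher with treatment in the overexpressing line and lower in the deficient line. Over the 9 genes of the other class the median log2 ratio was 0.22 in the overexpressing and 0.18 in the deficient line.

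**Figure D3:**
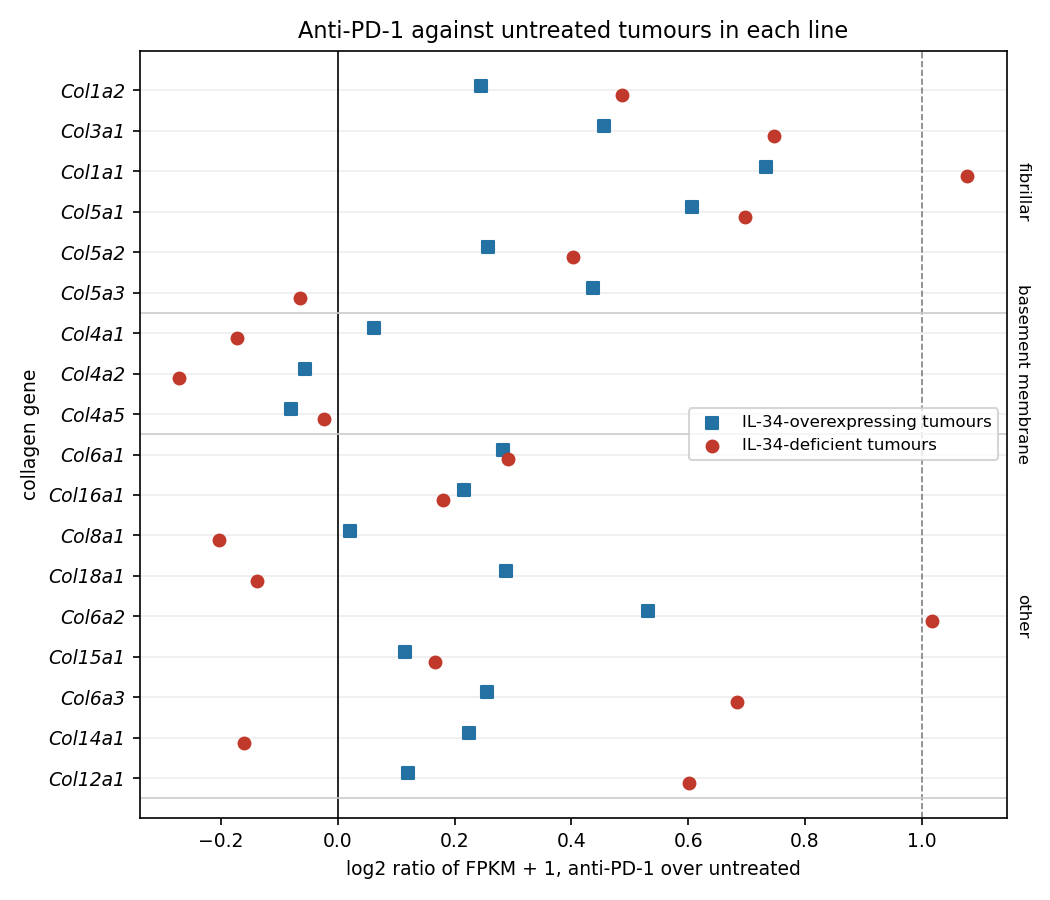
Log2 ratio of FPKM + 1, anti-PD-1 over untreated, for each of the 18 expressed collagen genes, with squares for IL-34-overexpressing and circles for IL-34-deficient tumours, a solid line at 0 and a dashed line at 1. Only Col1a1 (1.08) and Col6a2 (1.02) in the deficient line lie beyond 1, and the type IV genes lie near or below 0 in both lines.

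By the size rule, 0 collagen genes were higher and 0 lower with anti-PD-1 in the overexpressing line, where 0.0524% of all genes were past the rule upward and 0.279% downward. In the deficient line 2 were higher, Col1a1 with a log2 ratio of 1.08 and Col6a2 with 1.02, and 0 were lower, against 1.49% of all genes upward and 0.341% downward. With a pseudocount of 5 only Col1a1 remained past the rule there. At a smaller size, 3 of 18 genes had a log2 ratio of at least 0.5 in both lines, Col1a1, Col5a1 and Col6a2, against 0.212% of all genes. Rescaling each library to TPM, which sums to the same total in each library, shifted the median of all genes by 0.15 in the deficient comparison and by 0.01 in the overexpressing one. Relative to FPKM, the log2 ratios of Col4a5, Col5a3 and Col18a1 in the deficient line then turned to 0.12, 0.07 and 0.01.

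The anti-PD-1 difference over both lines was tested with limma on log2 of FPKM + 1, in an additive fit of line and treatment. The fit leaves only the interaction of the 2 factors as error, and limma draws each gene's error toward a trend over all genes tested. Each SE and p-value below therefore rests in part on other genes, not on that gene's own spread alone. At an adjusted p under 0.05, 0 collagen genes were called in either direction, as were 0 genes of all tested (0%). At an unadjusted p under 0.05 there were 7 collagen genes higher and 0 lower, against 2.73% of all genes higher and 1.75% lower. Col1a1 had a difference of 0.91 ± 0.13 (SE) with a limma adjusted p of 0.394. Col5a1 had 0.65 ± 0.10 with a limma adjusted p of 0.470, Col6a2 0.77 ± 0.14 with 0.540, and Col3a1 0.60 ± 0.13 with 0.734. Col6a3, Col5a2 and Col6a1 completed the 7, with differences of 0.47, 0.33 and 0.29. Col1a2 was at 0.37 ± 0.16 with a limma adjusted p of 0.916, and the 3 type IV genes had differences of -0.06 for Col4a1, -0.16 for Col4a2 and -0.05 for Col4a5.

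The number of calls turned on single libraries. Leaving out a library left a fit of treatment alone, in which the lone library of an arm is assumed to vary like the pair of the other. Line was not a term, so treatment was partly mixed with line, and the pair's own spread was the line difference. The calls and p-values below therefore cannot be assigned to treatment alone. Col6a1 differed by 0.47 without the treated deficient library, against 0.28 within the overexpressing line, and Col1a1 by 0.76 against 0.73. Without the treated deficient library, whose muscle and epidermal markers were high, 2 collagen genes were called higher, Col1a1 (0.76 ± 0.07, limma adjusted p = 0.00757) and Col5a1 (0.61 ± 0.08, limma adjusted p = 0.0257), and 0 lower. The background in that fit was 0.102% of genes higher and 0.364% lower. Without the treated overexpressing library, 7 were called higher (Col1a1, Col1a2, Col3a1, Col5a1, Col5a2, Col6a2 and Col12a1) and Col4a2 lower, in a fit that called 10.5% of all genes higher and 9.81% lower. Without the untreated overexpressing or the untreated deficient library, limma called 0 collagen genes and 0% of all genes, and 5 and 4 collagens were higher at an unadjusted p under 0.05. Over the 4 fits the difference of Col1a1 ran between 0.76 and 1.05 and that of Col5a1 between 0.61 and 0.70.

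Markers of other cell types also differed between treated and untreated libraries, some lists upward and some downward. Of the epidermal genes, 8 of 8 tested were past the size rule upward in the deficient line, with a median log2 ratio of 3.09. All but Krt10 were tested only because the treated deficient library reached 1 FPKM, so the filter fixed their direction. None reached 1 FPKM in the overexpressing line. Of the skeletal muscle genes, 9 of 10 were past the rule downward in the overexpressing line (median -1.99) and 9 of 10 upward in the deficient line (median 1.77). In the overexpressing line Myh4, Myh1, Pvalb and Atp2a1 reached 1 FPKM in the untreated library alone, so the filter fixed their direction there. The 11 fibroblast markers tested in the deficient line had a median of 0.40, and the 9 tested in the overexpressing line a median of 0.10, with 5 of the 9 above 0. Fap and Fbln1 were tested in the deficient line only, because its treated library alone reached 1 FPKM. The fibroblast markers summed to 151 against 140 FPKM in the overexpressing and 183 against 148 FPKM in the deficient line, and Tcf21 was at 0 in every library. Thy1, a fibroblast surface protein that T cells of mice also carry, had 39.4 against 41.7 FPKM in overexpressing and 59.1 against 38.0 FPKM in deficient tumours. Pdgfrb, the PDGF receptor of fibroblasts and pericytes, had 12.1 against 12.7 FPKM in overexpressing and 16.2 against 14.1 FPKM in deficient tumours. Fbln2, a fibulin, had 63.8 against 52.7 FPKM in overexpressing and 53.1 against 61.3 FPKM in deficient tumours. Clec3b, which encodes tetranectin, had 2.11 against 1.02 FPKM in overexpressing and 8.78 against 1.16 FPKM in deficient tumours. Macrophage markers summed to 1791 against 2041 FPKM and T cell markers to 35.2 against 45.1 FPKM in the overexpressing line, and to 3411 against 1972 and 129 against 57.8 FPKM in the deficient line. Of the macrophage genes tested, 1 of 8 in the overexpressing and 8 of 8 in the deficient line were higher with treatment, and of the T cell genes 2 of 7 and 7 of 7. Over all genes tested, 49.1% in the overexpressing and 40.2% in the deficient line were higher. Smooth muscle and pericyte markers summed to 35.2 against 52.6 FPKM in the overexpressing and 59.9 against 55.0 FPKM in the deficient line. This list holds Des, which skeletal muscle also expresses. Des had 1.62 against 11.2 FPKM in overexpressing and 30.3 against 17.3 FPKM in deficient tumours. Over the 6 genes tested, the list median was -0.37 in the overexpressing line, with 1 above 0. In the deficient line it was -0.18, with 2 above 0, so the higher deficient sum did not hold for most of the list. Kcnj8 reached 1 FPKM there in the untreated library alone, so the filter fixed its direction. Adipocyte and Schwann cell markers summed to at most 72.1 and 17.7 FPKM in any library, and cartilage markers to at most 0.158 FPKM, with 3 of 6 at 0. The part of these cell types in the deficient collagen values was not tested.

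Genes that act on collagen were examined by role. In the cell, prolyl and lysyl hydroxylases modify the nascent chains, and 0 of the 12 enzyme genes tested in the overexpressing line and 0 of the 13 in the deficient line were past the size rule, with medians of 0.12 and -0.02. P4hb, the common subunit of prolyl 4-hydroxylase, had 293 against 278 FPKM in overexpressing and 268 against 301 FPKM in deficient tumours. Ppib, a prolyl isomerase, lay between 219 and 229 FPKM in all 4 libraries, and Plod3, a lysyl hydroxylase, between 84.9 and 99.7 FPKM. P4ha2, a catalytic subunit of prolyl 4-hydroxylase, had 18.3 FPKM in treated against 9.81 FPKM in untreated overexpressing tumours, but 8.37 FPKM in treated against 15.5 FPKM in untreated deficient tumours. Its directions were opposite in the 2 lines.

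Among folding and export genes, Serpinh1, which encodes HSP47, the chaperone of procollagen, had 304 against 239 FPKM in overexpressing and 330.4 against 265 FPKM in deficient tumours. Its log2 ratios of 0.34 and 0.32 were alike in both lines and both treated libraries were above both untreated ones. Fkbp10, another procollagen chaperone, lay between 38.7 and 42.6 FPKM and Sec24d, a coat protein of secretory vesicles, between 29.9 and 31.3 FPKM. The medians of this list were 0.06 in each line over 8 genes. Outside the cell, Pcolce, which enhances the trimming of procollagen, had 448 against 398 FPKM in overexpressing and 469.8 against 403 FPKM in deficient tumours. Bmp1, the C-propeptide protease, had 24.2 against 22.2 FPKM and 27.6 against 20.4 FPKM. Loxl3, a lysyl oxidase, had 32.5 against 33.9 FPKM in overexpressing and 38.8 against 33.5 FPKM in deficient tumours. Over the 9 cleavage and crosslinking genes the medians were 0.12 and 0.22.

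Small leucine-rich proteoglycans bind fibrils and set their spacing. Their medians went apart, -0.30 over 7 genes in the overexpressing line and 0.60 over 9 genes in the deficient line, where 9 of 9 were above 0. Fmod and Podn were tested in the deficient line only. They reached 1 FPKM in its treated library alone, so the filter fixed their direction. Dcn, decorin, had 93.4 against 123 FPKM in overexpressing and 133 against 127 FPKM in deficient tumours. Bgn, biglycan, had 76.8 against 72.7 FPKM and 119 against 78.4 FPKM, and Ogn, osteoglycin, had 48.9 against 61.4 FPKM and 94.5 against 58.5 FPKM. For all 3 the treated deficient library was the highest of the 4. Aspn, asporin, had 30.6 against 47.5 FPKM in overexpressing and 63.5 against 51.1 FPKM in deficient tumours, and Prelp, a fibril-anchoring member, had 2.02 against 1.47 FPKM and 4.11 against 1.53 FPKM. Prelp was past the size rule in the deficient line with a log2 ratio of 1.01. The other interstitial proteins had a median of 0.28 in the overexpressing line, with 9 of 10 genes tested above 0. In the deficient line their median was 0.33, with 8 of 11 above 0. Tnxb (1.35 against 0.868 FPKM) and Eln reached 1 FPKM there in the treated library alone, so the filter fixed their direction. The median of 0.33 is the value of Tnxb itself. Of all genes tested, 49.1% in the overexpressing and 40.2% in the deficient line were above 0. Spp1, osteopontin, the most abundant of them, had 1530.2 against 1816 FPKM in overexpressing tumours. In deficient tumours it had 1465 against 1648 FPKM, so it was lower with treatment in both lines. Sparc, a collagen-binding glycoprotein, had 234 against 214 FPKM and 217 against 204 FPKM, and Fn1, fibronectin, had 235 against 193 FPKM and 164 against 207 FPKM. Eln, elastin, was under 1 FPKM except in the treated deficient library, at 2.13 FPKM.

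Laminins, nidogens and perlecan, the partners of type IV collagen, had medians of 0.15 in the overexpressing and -0.05 in the deficient line over 12 genes. Lamb1 had 89.0 against 83.9 FPKM in overexpressing and 75.1 against 86.8 FPKM in deficient tumours, and like Col4a1 it was lowest in the treated deficient library. Lamc1 had 68.4 against 61.6 FPKM and 63.8 against 61.9 FPKM, and Lama5 had 35.2 against 27.5 FPKM and 28.4 against 28.4 FPKM. Collagen receptors differed little, with medians of -0.01 and 0.06 over 8 genes. Itgb1, the common beta subunit of collagen-binding integrins, lay between 187 and 214 FPKM and Ddr2, a receptor kinase for fibrillar collagen, between 25.7 and 26.4 FPKM. Lair1, an inhibitory collagen receptor of leukocytes, had 12.5 against 15.6 FPKM in overexpressing and 24.1 against 15.4 FPKM in deficient tumours. limma called 0 genes of these lists for treatment.

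**Figure D4:**
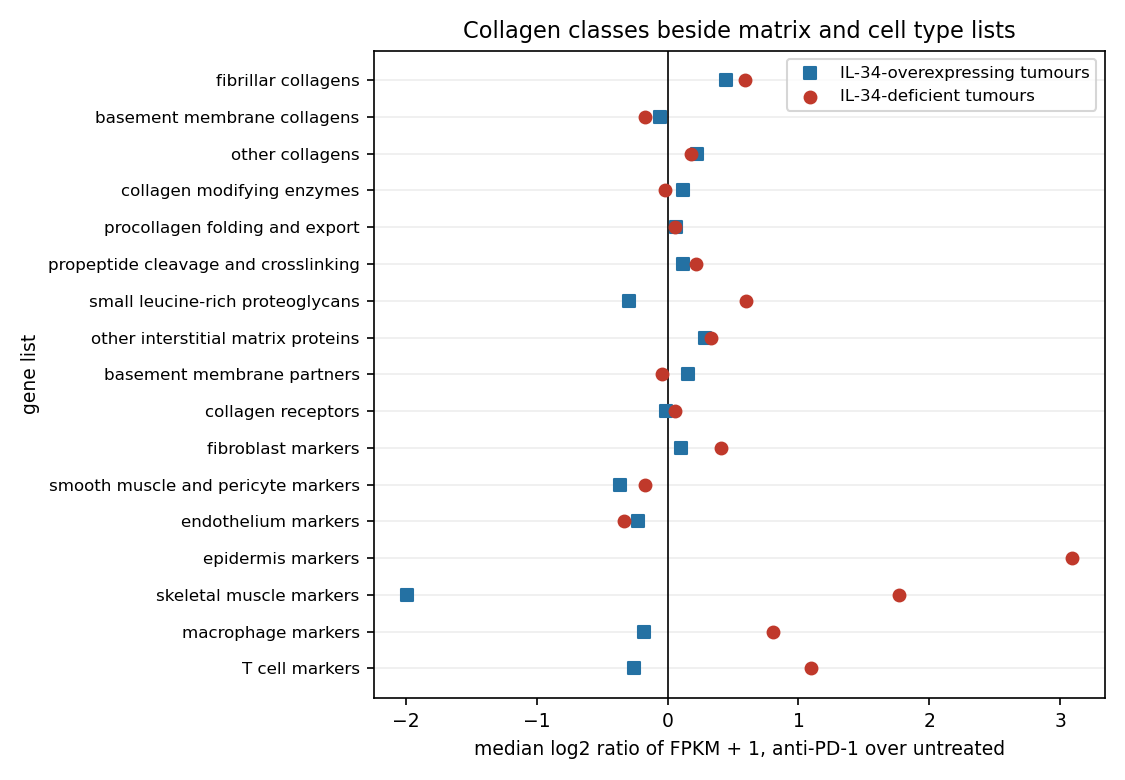
Median log2 ratio of FPKM + 1, anti-PD-1 over untreated, of each collagen class and gene list, with squares for IL-34-overexpressing and circles for IL-34-deficient tumours and a line at 0 (no square for epidermis, where no gene reached 1 FPKM). Fibrillar collagens lie above 0 in both lines (0.45 and 0.59), while the proteoglycan (-0.30 and 0.60) and skeletal muscle (-1.99 and 1.77) medians lie on opposite sides.

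The second question was whether collagens differed between the IL-34 lines. Without treatment, none of the 18 genes had a log2 ratio above 0.41 in size between the overexpressing and deficient libraries. The largest log2 ratio was 0.41 for Col6a3 (4.68 against 3.29 FPKM), followed by 0.37 for both Col6a2 and Col6a1. For Col6a1 this was larger than its anti-PD-1 log2 ratios of 0.28 in the overexpressing and 0.29 in the deficient line. Of the 18 genes, 15 were above 0, against 40.0% of all genes tested, and 0 were past the size rule in either direction, against 0.122% of all genes upward and 0.0959% downward. The class medians were 0.04 for fibrillar, 0.07 for basement membrane and 0.11 for other genes, against -0.03 over all genes. Under anti-PD-1, 9 genes were higher and 9 lower in the overexpressing library, where 56.8% of all genes were higher. Again 0 were past the rule, against 0.383% of all genes upward and 2.37% downward. Here the fibrillar median was -0.13 and the basement membrane median 0.31. Col5a3 differed the most, with 7.77 FPKM in treated overexpressing against 4.19 FPKM in treated deficient tumours, a log2 ratio of 0.76. Col18a1 followed with 32.5 against 22.5 FPKM and 0.51. Col12a1 was the lowest at -0.46, with 2.75 against 4.14 FPKM. These comparisons share no library with each other, but each shares its libraries with the anti-PD-1 comparisons above.

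In the limma fit of the IL-34 difference over both treatments, 0 collagen genes were called. Il34 was the sole gene called, 0.00847% of those tested, and it was higher in the overexpressing line. At an unadjusted p under 0.05, Col5a3 (0.50 ± 0.15, limma adjusted p = 0.875) and Col6a1 (0.37 ± 0.10, limma adjusted p = 0.875) were higher in overexpressing tumours and 0 collagens were lower, against 1.34% of all genes higher and 4.22% lower. Col6a1 was higher in the overexpressing library with and without treatment, by 1.29-fold and 1.30-fold.

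The third question was whether the response to anti-PD-1 differed between the lines, taken as the log2 ratio of the overexpressing line minus that of the deficient line. Of the 18 genes, 7 were above 0 and 11 below, against 59.2% of all genes above 0, and 0 were past a size of 1, against 0.516% of all genes upward and 2.18% downward. The fibrillar median was -0.19, the basement membrane median 0.21 and that of the other genes -0.01, against 0.06 over all genes. The differences ran between -0.49 for Col6a2 and 0.50 for Col5a3. With 1 library per group these differences could not be tested.

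The 25 genes below 1 FPKM were given by 14 that stayed under 0.1 FPKM in every library and 11 that lay between 0.1 and 1 FPKM at their highest. Nearest to the limit was Col17a1, a transmembrane collagen of the epidermal attachment, with 0.0583 against 0.0944 FPKM in overexpressing and 0.968 against 0.143 FPKM in deficient tumours. Col7a1, which forms the anchoring fibrils under epidermis, had 0.0775 against 0.124 FPKM in overexpressing and 0.296 against 0.0436 FPKM in deficient tumours. Both were highest in the treated deficient library, where epidermal markers were highest as well; the part of epidermis was not tested. Col10a1, of growth plate cartilage, had 0.282 against 0.112 FPKM in overexpressing and 0.0431 against 0.120 FPKM in deficient tumours. Col20a1, Col28a1, Col9a3, Col23a1, Col11a2, Col27a1, Col8a2 and Col24a1 made up the rest of the 11, with at most 0.772 FPKM. Col2a1 and Col11a1 of cartilage fibrils, Col4a3, Col4a4, Col4a6, Col6a4, Col6a5, Col6a6, Col9a1, Col13a1, Col19a1, Col22a1 and Col25a1 were under 0.1 FPKM, and Col9a2 was at 0 throughout.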

How the data were processed

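The authors deposited 1 table of FPKM values for 23745 gene rows, with coordinates, and 1 emptied line was not used. The submitters' processing notes name Cufflinks 2.2.1, TopHat2 2.1.0, CASAVA 1.8.2 and the build mm10. The sources used here do not give their order, settings or strand setting, and per the labels the library kit kept strand. Deposited starts count from 0 and are given here from base 1; with this, 20 of 43 collagen starts and 19 ends equal those of RefSeq. FPKM does not hold the number of fragments, so no counting interval is given, and relative depth came from steps among values below 0.1 FPKM.

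From these values, symbols of 775 short RNAs were left out, the row with the highest mean was taken per symbol, and log2 ratios used a pseudocount of 1, which understates differences of low genes. Pairs of single libraries were described without a test. limma 3.58.1 in R 4.3.3 fitted line and treatment, with its trend option, to the log2 values of 11813 genes that reached 1 FPKM in a library, and p-values were adjusted over all of them by Benjamini-Hochberg. Its 1 residual degree of freedom is the interaction, and limma moderated each gene's error toward a trend over all genes tested. Its p-values therefore rest on spread between these libraries, pooled in part over genes, and not on spread between animals. The fit was tested on simulated data. Python 3.11.15, numpy 2.4.6, pandas 2.3.3 and matplotlib 3.10.9 were used otherwise.

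The collagen genes, their classes and the 17 gene lists (173 symbols, 2 of them unmatched) were chosen with earlier results of these data known. Values are given for collagens with a mean of at least 1 FPKM; of the lists that act on collagen and of fibroblast markers, the 3 most abundant genes and those past the size rule are named, and the other cell type lists are given by their sums and counts. Alternatives were other pseudocounts, FPKM minima, scalings, classes and fits, and leaving out each library.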

Additional observations from a re-analysis of the deposited data

Results flagged for a closer look

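The following values had opposite signs in the 2 lines, each over 1 library per group; the difference was not tested. As log2 ratios of anti-PD-1 over untreated, Col5a3 stood at 0.44 in the overexpressing and -0.065 in the deficient line, Col18a1 at 0.29 and -0.14, Col14a1 at 0.22 and -0.16, Col4a1 at 0.061 and -0.17, and Col8a1 at 0.022 and -0.20. Apart from Col5a3 none of these 5 genes is fibrillar. Under TPM scaling Col5a3 and Col18a1 were above 0 in both lines.

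Among the lists around collagen, the median of the small leucine-rich proteoglycans was -0.30 over 7 genes in the overexpressing and 0.60 over 9 genes in the deficient line. The basement membrane partners had medians of 0.15 and -0.046, the collagen modifying enzymes 0.12 and -0.021, and the collagen receptors -0.014 and 0.056, in the same order of lines. Of the cell type lists, skeletal muscle markers had medians of -1.99 in the overexpressing and 1.77 in the deficient line, macrophage markers -0.18 and 0.81, and T cell markers -0.26 and 1.09.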

How the results depend on the processing

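No collagen past the size rule changed sign under any alternative run. Median-of-ratios scaling, a pseudocount of 0.1, summed rows, a fit without the other factor and a fit without a trend left each count within 1.5 times and each class median within 0.1. With a pseudocount of 5, 1 collagen was past the size rule in the deficient line. Under TPM scaling, 3 collagens were past the rule in the deficient line, 1 between the lines under anti-PD-1 and 1 in the difference of responses; the added gene was Col17a1, which is under 1 FPKM. TPM also moved the medians of the deficient comparison to 0.75 for fibrillar, -0.021 for basement membrane and 0.47 for other collagens, those of the difference of responses to -0.33, 0.079 and -0.38, and those of the other class to -0.048 between the lines under anti-PD-1 and 0.33 in the limma anti-PD-1 difference. Without an FPKM minimum, which adds 25 genes near 0, the fibrillar medians were 0.25 in the overexpressing line, 0.14 in the deficient line, -0.091 in the difference of responses and 0.19 in the limma anti-PD-1 difference. The basement membrane medians were then -0.011 in the deficient line, -0.0076 between the lines under anti-PD-1, -0.0078 in the difference of responses and -0.0018 in the limma IL-34 difference, and those of the other class 0.017 in the overexpressing line, -0.016 between the lines under anti-PD-1, 0.046 for limma anti-PD-1 and -0.0038 for limma IL-34. An FPKM minimum of 5 gave a fibrillar median of 0.70 in the deficient line. With types VII, XV and XVIII counted as basement membrane, that class had a median of 0.061 in the overexpressing line and the other class 0.29 in the deficient line. In the limma anti-PD-1 fit, leaving out 1 library at a time, an alternative added after the data had been seen, gave 0 to 8 called collagens, fibrillar medians of 0.45 to 0.59, basement membrane medians of -0.21 to 0.00087 and other medians of 0.11 to 0.27. Under the alternatives other than a library left out, for the collagens at an unadjusted p under 0.05, the lowest limma adjusted p was 0.182. No paired analysis was possible because each group has 1 library and the groups share fewer than 2 replicate numbers; line was already a term of the limma fit. Depth limits the genes under 1 FPKM most, where a few fragments set a value.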
